A study of Mus musculus with 4 samples.

Results

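The genes described here encode the machinery of S phase: 33 genes for origin licensing, helicase activation, DNA synthesis at the fork, nucleotide supply, chromatin assembly and the G1/S switch. They were chosen by name, from their known roles and with earlier results of these data known. Shares set against all genes therefore only describe the list. All 33 genes were found among the 51509 listed in the deposited table. Their transcripts were measured by RNA sequencing in mouse intestinal organoids, self-organising epithelial cultures, of the C57BL/6 strain and wild-type genotype, from animals 8 to 12 weeks old. One group of 2 libraries came from organoids given SGC-CBP30, a small molecule that binds the bromodomains (acetyl-lysine reading domains) of the acetyltransferases CBP and p300, and the other group of 2 libraries from organoids given vehicle. Both groups had received 8 Gy of irradiation, and RNA was taken 36 hours later, so that the libraries compared here are all from irradiated organoids. The treatment label of SGC-CBP30 replicate 2 reads SGC-CBP31; it was placed by its title, and results that change without it are named. Nothing in the labels says that replicates are separate cultures or animals, so each p-value speaks only of the scatter among the 4 libraries, and that may be technical.

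Before S phase, the origin recognition complex with Cdc6 and Cdt1 loads the Mcm2 to Mcm7 hexamer on DNA, which licenses an origin. Cdc45 and the GINS complex then turn the loaded hexamer into the active helicase, and the polymerases, the sliding clamp Pcna and the clamp loader copy the opened strands. Ribonucleotide reductase, thymidylate synthase and thymidine kinase supply the building blocks, and the CAF-1 complex and Uhrf1 restore nucleosomes and DNA methylation behind the fork. E2F transcription factors and cyclin E drive entry into S phase. In the intestine these genes are mainly used by the dividing cells of the crypt. In bulk libraries such as these, fewer cells in S phase and less RNA per cell cannot be told apart.

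Many of these genes are known E2F targets, and their promoters were searched for the E2F consensus. Genes chosen by S phase role include many known targets, so the share with a match only describes the list. Promoter windows of 300 bases (250 before to 50 after the RefSeq start, GRCm38.p6) were held for 27 of the 33 genes, and the letters TTTCCCGC, TTTGGCGC, TTTCGCGC and TTTGCCGC were searched on both strands. They occurred in 13 of the 27 (48.1%), against 704 of all 27025 genes in the same table (2.6%). Of the hexamer genes, Mcm5, Mcm6 and Mcm7 held a match before the start, and for that reason their sequences are shown. Mcm3 held matches only after the start, Mcm2 held none, and Mcm4 had no window. The 250 bases before the start are printed 5′ to 3′ on the strand of the gene, with matches in capitals. A longer run of capitals holds overlapping matches on both strands.
Mcm5 (chr8:75109259-75109508, plus strand): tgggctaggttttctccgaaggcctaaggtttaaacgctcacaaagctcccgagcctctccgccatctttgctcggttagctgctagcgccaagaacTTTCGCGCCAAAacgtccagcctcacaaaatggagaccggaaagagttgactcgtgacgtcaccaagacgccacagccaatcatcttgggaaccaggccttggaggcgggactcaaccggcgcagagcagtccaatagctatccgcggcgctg
Mcm6 (chr1:128359706-128359955, minus strand): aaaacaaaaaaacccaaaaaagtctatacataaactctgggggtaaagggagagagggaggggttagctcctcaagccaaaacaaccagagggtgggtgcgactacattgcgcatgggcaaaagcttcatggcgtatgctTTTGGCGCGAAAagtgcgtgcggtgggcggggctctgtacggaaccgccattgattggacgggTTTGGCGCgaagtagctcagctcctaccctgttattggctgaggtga
Mcm7 (chr5:138171884-138172133, minus strand): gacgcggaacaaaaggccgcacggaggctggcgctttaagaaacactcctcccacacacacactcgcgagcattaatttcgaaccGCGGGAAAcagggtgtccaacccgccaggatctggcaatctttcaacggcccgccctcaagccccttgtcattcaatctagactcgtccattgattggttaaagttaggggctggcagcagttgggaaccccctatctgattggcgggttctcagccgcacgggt
The Mcm7 window belongs to 1 of its 2 RefSeq starts, the one with an E2F match. A match is a run of letters and not a measured binding site. CCAAT boxes (CCAAT on either strand) were in 16 of the 27 windows (59.3%) and in 41.1% of all genes, and the letters TTTGAA or TTCGAA of the CHR element, on either strand, in 6 (22.2%) and in 21.7% of all genes.

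The libraries held 16433117 to 18087250 counts, and the 33 genes together took 0.0733% to 0.0874% of them. The epithelial label was checked against markers. Epcam had 797 and 718 CPM (counts scaled to TMM library size) in SGC-CBP30 libraries, against 742 and 731 CPM in vehicle libraries, and of 13 markers of immune, endothelial, stromal, muscle and glial cells only 2 passed the filter on low counts. The other 11 had at most 16 counts in any library, and 1 of them had 0 in all 4. Summed over the 13, there were 78 and 70 counts in SGC-CBP30 libraries, against 59 and 50 counts in vehicle libraries, and the collagen gene Col3a1 had 16 and 7, against 1 and 1. Of the genes of the inhibited proteins, Ep300 rose by 0.24 ± 0.07 (SE) on the log2 scale (edgeR adjusted p = 0.00688, lost without vehicle replicate 1 or 2 at 0.169 and 0.0618). Crebbp had a log2 fold change of 0.16 ± 0.08 (edgeR adjusted p = 0.154; 0.0322 when scaled by library totals, 0.00127 and 0.726 without SGC-CBP30 replicates 1 and 2).

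S phase genes were lower with SGC-CBP30, by small amounts. Summed over the 33 genes, the level was 719 and 735 CPM in SGC-CBP30 libraries, against 895 and 871 CPM in vehicle libraries, and the groups did not overlap. All 33 passed the filter on low counts. In edgeR's quasi-likelihood test, fitted to all 14684 tested genes with Benjamini-Hochberg adjustment over all of them, 11 of the 33 fell, 0 rose and 22 were not past an adjusted p of 0.05, where 16.3% of all tested genes fell and 13.6% rose. At an unadjusted p under 0.05, 15 members passed, beside 5745 of the 14684 tested genes in either direction. The median log2 fold change of the 33 was -0.22, against 0.01 over all tested genes. Both SGC-CBP30 libraries lay below both vehicle libraries in 22 members, against 31% of all tested genes, and above both in 1 member, against 32.1%. Of the 11 that fell, 10 changed by less than 1.5-fold, as did 59.8% of all genes called in either direction. DESeq2 called 7 members lower and 0 higher (13.4% of its genes were lower), scaling by library totals left 7 lower and 0 higher (13.1% of genes were then lower and 19.8% higher), and without vehicle replicate 1 there were 5 (12.2% of genes).

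**Figure D1:**
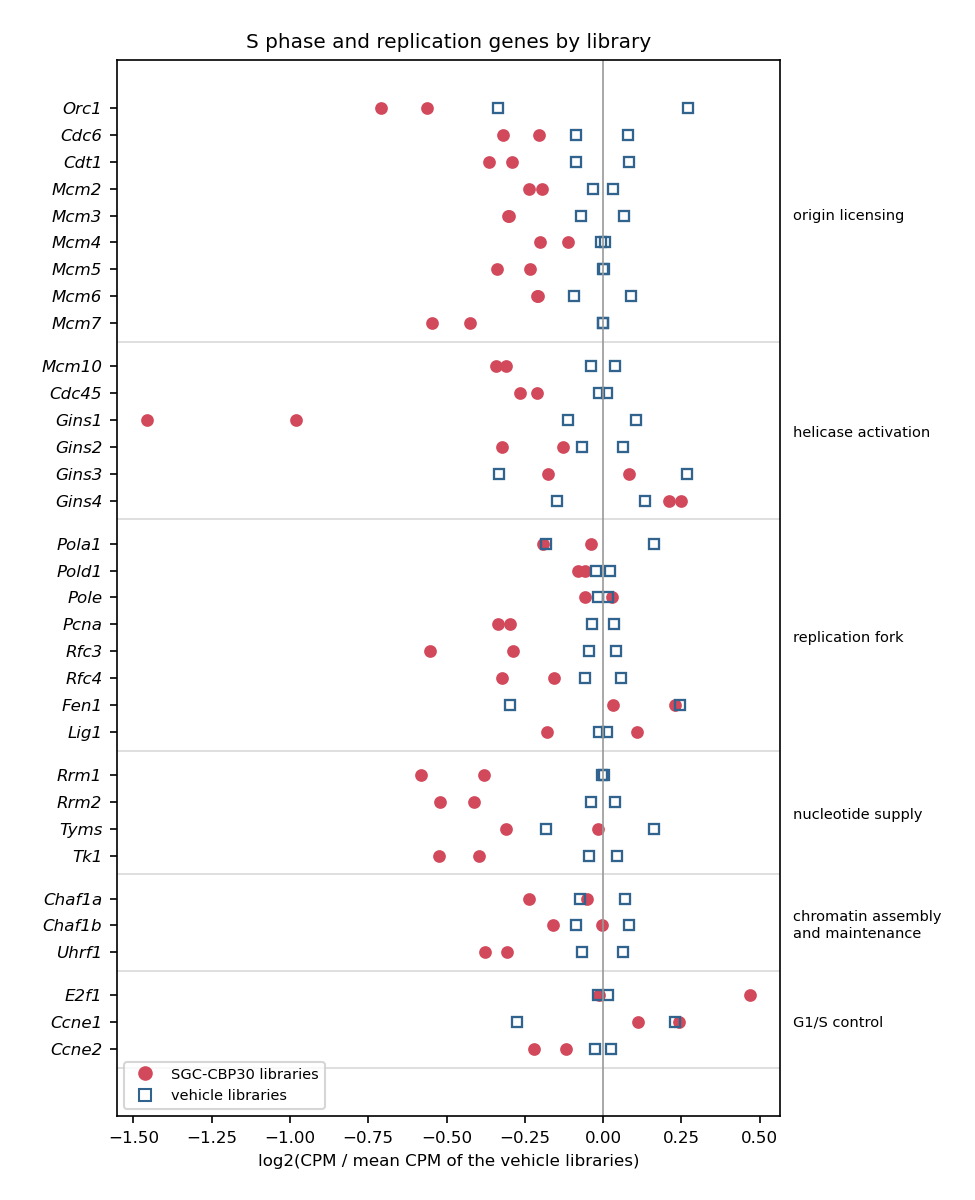
Level of each of the 33 genes in each library, as the log2 ratio of its CPM to the mean CPM of the 2 vehicle libraries, with SGC-CBP30 libraries as filled circles and vehicle libraries as open squares, grouped by role. Both filled circles lie left of both squares in 22 genes, among them all 9 licensing genes, and right of both in Gins4 alone.

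The origin licensing members all stood lower. All 9 had both SGC-CBP30 libraries below both vehicle libraries, against 31% of all tested genes, with a median log2 fold change of -0.29. Where 16.3% of all tested genes fell, 4 of the 9 did: Cdt1, Mcm3, Mcm5 and Mcm7. The 7 licensing genes that are not members had a median of 0.03, with 0 called lower and 1 higher. Mcm7, a hexamer subunit, had 46.4 and 50.6 CPM in SGC-CBP30 libraries, against 67.8 and 67.9 CPM in vehicle libraries. It was 1.40-fold lower, with a log2 fold change of -0.48 ± 0.08 (SE, edgeR adjusted p = 5.4e-05), and was called in all 10 alternatives tried. Mcm3 had 29.6 CPM in both SGC-CBP30 libraries, against 38.2 and 34.8 CPM in vehicle libraries (log2 fold change -0.30 ± 0.10, edgeR adjusted p = 0.0255). Mcm5 had 31.6 and 29.3 CPM in SGC-CBP30 libraries, against 37.1 and 37.2 CPM in vehicle libraries (-0.29 ± 0.10, edgeR adjusted p = 0.0320). The loading factor gene Cdt1 had 23.7 and 24.9 CPM in SGC-CBP30 libraries, against 28.7 and 32.3 CPM in vehicle libraries (-0.32 ± 0.11, edgeR adjusted p = 0.0281). In each of these 4 genes the higher SGC-CBP30 library stayed below the lower vehicle library. The calls of Cdt1, Mcm3 and Mcm5 were lost in DESeq2 (adjusted p = 0.0949, 0.0856 and 0.102) and under scaling by library totals (adjusted p = 0.0849, 0.0865 and 0.105). Leaving out 1 library ended the call of Mcm3 without vehicle replicate 1 (adjusted p = 0.256), of Cdt1 without vehicle replicate 2 or SGC-CBP30 replicate 1 (0.278 and 0.0765), and of Mcm5 without vehicle replicate 1 or 2 or SGC-CBP30 replicate 2 (0.133, 0.142 and 0.113).

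The other 3 hexamer subunits had smaller differences. Mcm6 had 53.0 and 53.1 CPM in SGC-CBP30 libraries, against 65.2 and 57.5 CPM in vehicle libraries, with a log2 fold change of -0.21 and a 95% interval of -0.38 to -0.04 (edgeR adjusted p = 0.0615, passing without SGC-CBP30 replicate 2 at 0.0435 and at 0.0402 under a filter asking for 50 counts or more in 2 libraries). Its log2 fold change was -0.12 (adjusted p = 0.576) without vehicle replicate 1, and -0.14 (adjusted p = 0.227) with library totals. Mcm2 and Mcm4 had log2 fold changes of -0.22 and -0.16, with 95% intervals of -0.43 to -0.01 and -0.36 to 0.05. Summed over the 6 subunits, the level was 222 and 225 CPM in SGC-CBP30 libraries, against 280 and 267 CPM in vehicle libraries. Orc1, the largest subunit of the origin recognition complex, had 42 and 48 counts in SGC-CBP30 libraries, against 86 and 51 counts in vehicle libraries. Its log2 fold change was -0.64 with a 95% interval of -1.25 to -0.02 (edgeR adjusted p = 0.114), and it was -0.30 without vehicle replicate 1 and -0.90 (adjusted p = 0.0482) without vehicle replicate 2. Cdc6, which recruits Cdt1 and the hexamer, had -0.26 with a 95% interval of -0.62 to 0.10.

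**Figure D2:**
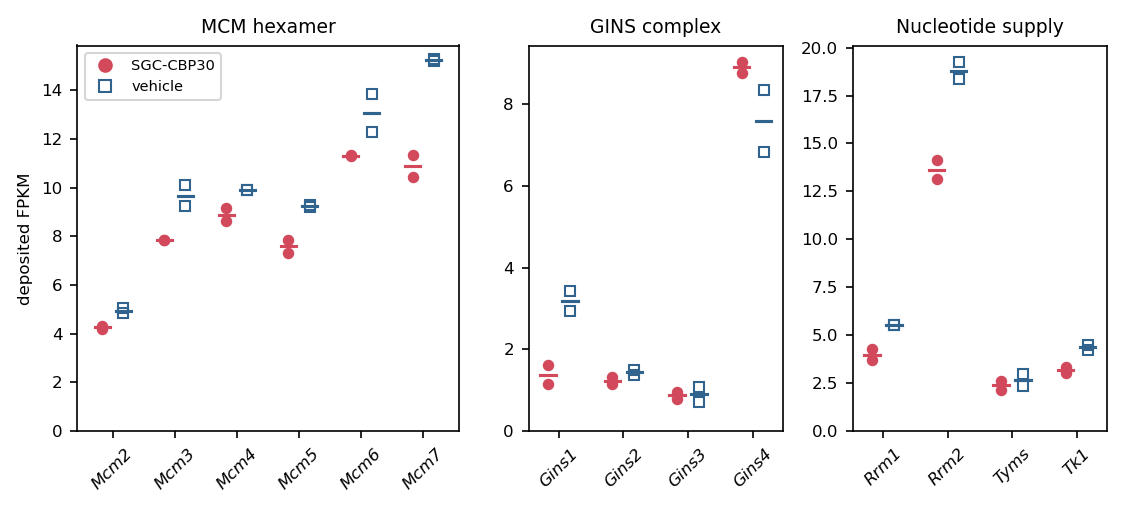
Deposited FPKM (fragments scaled by gene length and library size) of the MCM hexamer, GINS and nucleotide supply genes, with SGC-CBP30 libraries as filled circles left of vehicle libraries as open squares and a bar at each group mean. Within the hexamer Mcm7 had the highest vehicle mean, 15.2 FPKM, and Mcm6 the highest SGC-CBP30 mean, 11.3 FPKM, and within GINS Gins4 stood above the other 3 subunits in both groups.

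Set per length, the hexamer genes did not have equal levels although the proteins form a complex with 1 copy of each. In deposited FPKM, Mcm7 averaged 10.9 ± 0.65 in SGC-CBP30 libraries and 15.2 ± 0.06 in vehicle libraries (SD, n = 2 each). Mcm6 averaged 11.3 ± 0.02 FPKM in SGC-CBP30 libraries and 13.1 ± 1.11 FPKM in vehicle libraries. Mcm2 was lowest, at 4.26 ± 0.09 FPKM in SGC-CBP30 libraries and 4.94 ± 0.13 FPKM in vehicle libraries. The deposited gene length is the union of all annotated exons, which it equalled in all 33 genes, so a gene with long exons that are seldom used has an FPKM that is too low. Scaling by length does not touch the ratio of a gene between libraries.

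Among the helicase activation genes Gins1 had the largest fall. Gins1, a GINS subunit, had 30 and 43 counts (1.76 and 2.45 CPM) in SGC-CBP30 libraries, against 79 and 83 counts (4.47 and 5.20 CPM) in vehicle libraries. It was 2.29-fold lower, with a log2 fold change of -1.19 ± 0.29 (SE) and a 95% interval of -1.80 to -0.59 (edgeR adjusted p = 0.00293), and was called in all 10 alternatives. Its partners in the same complex had log2 fold changes of -0.22 (Gins2, 95% interval -0.68 to 0.23), -0.05 (Gins3, -0.75 to 0.65) and 0.23 (Gins4, -0.10 to 0.56), none past the threshold. The interval of Gins1 overlapped those of Gins2 and Gins3 and did not meet that of Gins4. The differences between subunits were not tested. Gins4 had 12.2 and 11.9 CPM in SGC-CBP30 libraries, against 9.29 and 11.3 CPM in vehicle libraries, the one member with both SGC-CBP30 libraries above both vehicle libraries. Mcm10, which helps to fire origins, had 20.9 and 21.3 CPM in SGC-CBP30 libraries, against 25.7 and 27.1 CPM in vehicle libraries, and fell (log2 fold change -0.32 ± 0.11, edgeR adjusted p = 0.0326). Mcm10 missed the threshold in DESeq2 (adjusted p = 0.111), with library totals (0.0940), and without SGC-CBP30 replicate 1, vehicle replicate 1 or vehicle replicate 2 (0.0757, 0.0720 and 0.194). Cdc45, the other helicase cofactor, had -0.24 with a 95% interval of -0.64 to 0.16. The sign of Gins3 turned under library totals (0.024).

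Of the genes of the replication fork, Pcna fell. The median log2 fold change of the 8 was -0.09. Of them 1 fell (12.5%, beside 16.3% of all tested genes) and 7 were uncalled. Pcna, the sliding clamp and the most abundant member, had 140 and 136 CPM in SGC-CBP30 libraries, against 176 and 167 CPM in vehicle libraries. It was 1.24-fold lower (log2 fold change -0.32 ± 0.07 (SE), edgeR adjusted p = 0.000593), and no longer past the threshold when vehicle replicate 1 was left out (adjusted p = 0.0513). The catalytic polymerase subunit genes Pole, Pold1 and Pola1 had log2 fold changes of -0.01, -0.07 and -0.11. Their 95% intervals ran from -0.28 to 0.25, -0.31 to 0.18 and -0.44 to 0.22, against the -0.32 of Pcna. Lig1, the ligase that joins Okazaki fragments, had -0.03 (95% interval -0.26 to 0.21). The signs of Pole, Pold1 and Lig1 turned under library totals, to 0.058, 0.0051 and 0.047. The clamp loader subunit gene Rfc3 had 10.5 and 8.71 CPM in SGC-CBP30 libraries, against 12.4 and 13.2 CPM in vehicle libraries. Its log2 fold change of -0.41 was at the threshold (edgeR adjusted p = 0.0513), with a 95% interval of -0.74 to -0.09 and no overlap of the groups. It passed with RLE size factors (0.0485), with the stricter count filter (0.0379) and without SGC-CBP30 replicate 1 (0.0212). It stood at -0.29 (adjusted p = 0.266) without SGC-CBP30 replicate 2, and DESeq2 gave an adjusted p of 0.171. Rfc4, of the same loader, had -0.24 (95% interval -0.66 to 0.19).

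**Figure D3:**
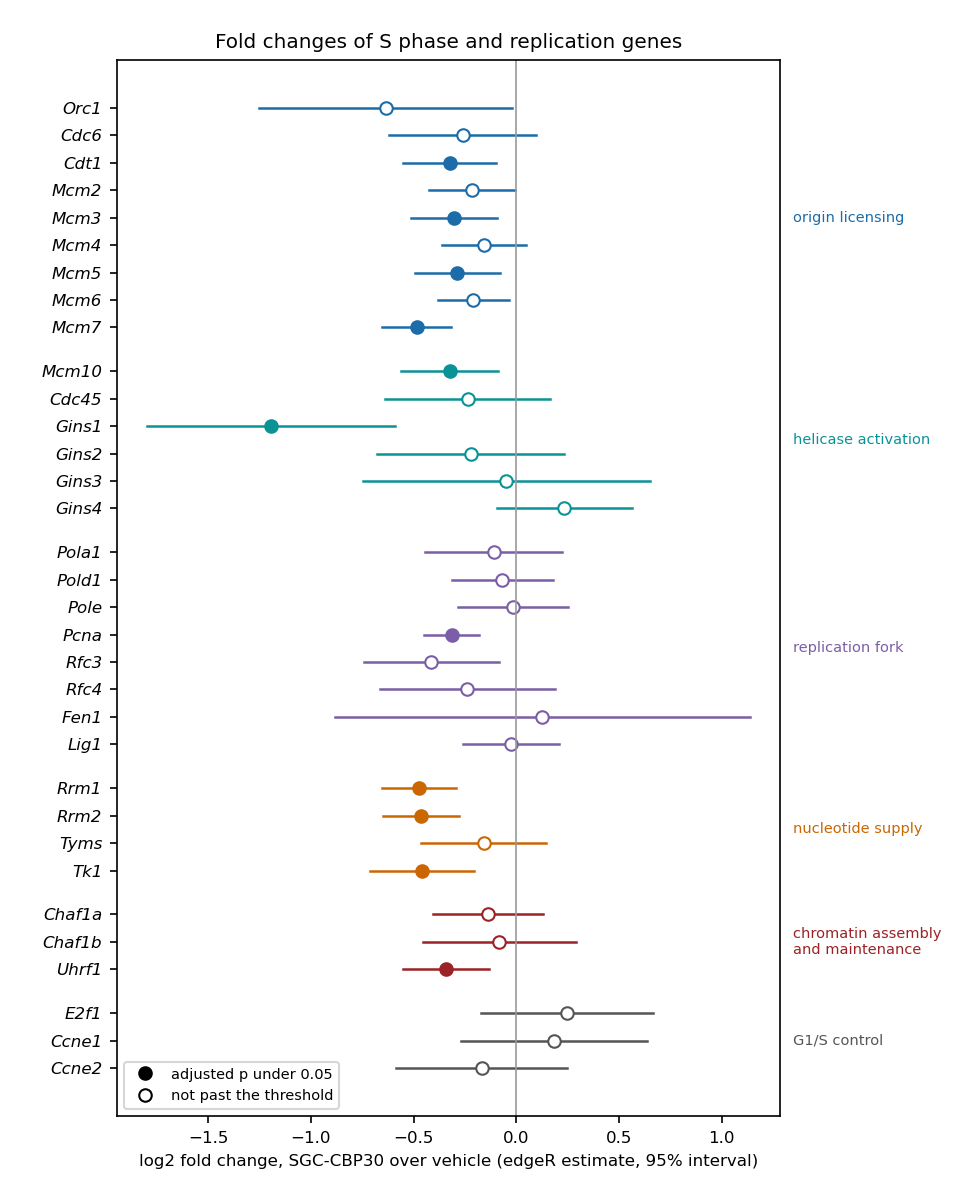
SGC-CBP30 over vehicle log2 fold change of each of the 33 genes with its 95% interval (edgeR), filled where the adjusted p is under 0.05. The 11 filled points all lie below 0, 3 of the 4 nucleotide supply genes are filled near -0.46, and the 3 catalytic polymerase genes lie between -0.11 and -0.01.

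The flap nuclease gene Fen1 could hardly be measured. It had 20 and 18 counts in SGC-CBP30 libraries, against 21 and 13 counts in vehicle libraries, and the 95% interval of its log2 fold change ran from -0.89 to 1.14. Of its exon bases 84.2% are also exon of another gene in the GENCODE M21 annotation, 1909 bases of them in the antisense gene Gm10143 and 130 in Tmem258 on the other strand. A pair of other members, Gins2 with 67.3% (Gse1, other strand) and Chaf1a with 52.5% (Ubxn6, other strand), share more than 50% of their exon bases. Strand use in the counting is not given in the sources used here, so how reads in these stretches were assigned cannot be told. Without these genes 11 of 30 members fell, 0 rose, and the median log2 fold change was -0.24. Mcm7 also shares 12.6% of its exon bases, with Ap4m1 and Cops6 on the other strand and with Mir25 and Mir93, which lie in it on the same strand.

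Nucleotide supply had the highest share of members that fell, 3 of 4, where 16.3% of all tested genes fell. Rrm1, the large subunit of ribonucleotide reductase, had 41.0 and 47.2 CPM in SGC-CBP30 libraries, against 61.6 and 61.2 CPM in vehicle libraries (log2 fold change -0.48 ± 0.09 (SE), edgeR adjusted p = 0.000157). Rrm2, the small subunit that is made in S phase, had 36.6 and 39.4 CPM in SGC-CBP30 libraries, against 53.8 and 51.0 CPM in vehicle libraries (-0.46 ± 0.09, edgeR adjusted p = 0.000284). Both subunits were called in all 10 alternatives, at similar folds of 1.39 and 1.38. The thymidine salvage kinase gene Tk1 had 15.9 and 17.4 CPM in SGC-CBP30 libraries, against 23.6 and 22.1 CPM in vehicle libraries (-0.46 ± 0.12, edgeR adjusted p = 0.00605), but not once vehicle replicate 1 was left out (adjusted p = 0.0552). Tyms, the thymidylate synthase of the other route to thymidine nucleotides, had 16.1 and 13.2 CPM in SGC-CBP30 libraries, against 18.2 and 14.4 CPM in vehicle libraries. Its groups overlapped, and its log2 fold change of -0.16 had a 95% interval of -0.46 to 0.15.

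Of the chromatin genes Uhrf1 fell. Uhrf1, which brings the maintenance DNA methyltransferase to replicated DNA, had 29.1 and 30.5 CPM in SGC-CBP30 libraries, against 39.5 and 36.0 CPM in vehicle libraries (log2 fold change -0.34 ± 0.10 (SE), edgeR adjusted p = 0.0117). With vehicle replicate 1 left out, its adjusted p was 0.163. The CAF-1 subunit genes Chaf1a and Chaf1b had -0.14 and -0.08, with 95% intervals of -0.41 to 0.13 and -0.45 to 0.29, and their groups overlapped.

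None of the 3 G1/S control genes fell or rose. E2f1, a transcription factor that drives S phase genes, had 9.46 and 6.78 CPM in SGC-CBP30 libraries, against 6.91 and 6.77 CPM in vehicle libraries. Its log2 fold change was 0.25 (95% interval -0.17 to 0.67), and -0.01 without SGC-CBP30 replicate 1. Ccne1 and Ccne2, the cyclin E genes, had 0.18 (95% interval -0.27 to 0.64) and -0.17 (-0.59 to 0.25). As a median the class stood at 0.18, against -0.46 for nucleotide supply, -0.29 for licensing, -0.23 for helicase activation, -0.14 for chromatin and -0.09 for the fork. These medians rest on 3 to 9 genes each and the differences between classes were not tested.

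**Figure D4:**
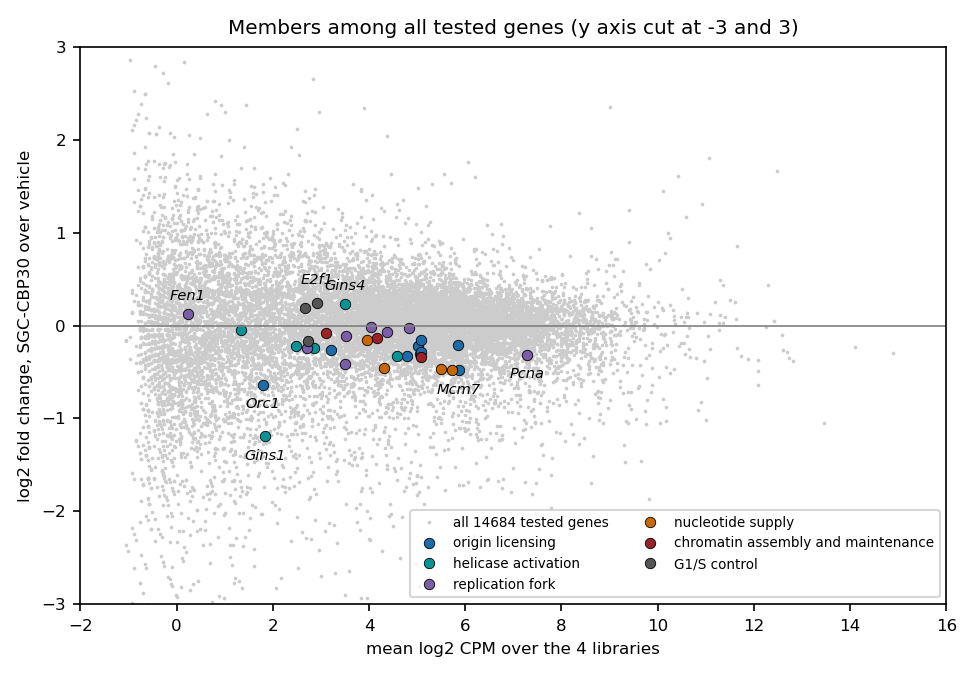
SGC-CBP30 over vehicle log2 fold change against mean log2 CPM for all 14684 tested genes (grey) and the 33 members (coloured by role), with the vertical axis limited to -3 and 3. The members with the widest intervals, Fen1, Orc1, Gins1 and Gins3, lie at the low end of the level axis, and Pcna is the most abundant.

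A further 76 genes of replication and the G1/S switch that are not members were counted in the same fit. The fit called 19 of them lower and 5 higher and left 52 uncalled, with a median log2 fold change of -0.08, beside the 16.3% of all tested genes that fell and 13.6% that rose. Without vehicle replicate 1, which leaves 1 vehicle library, fewer of them were called in either direction. Fewer of all tested genes were then called lower as well. DESeq2 called 13 lower and 2 higher (13.4% of its genes were lower). Library totals gave 14 lower and 9 higher, where 13.1% of genes were lower and 19.8% higher. Nucleotide supply again held the highest share, 5 of 9, a count that includes Samhd1, which breaks down deoxynucleotides instead of supplying them. Samhd1 had 60.8 and 57.2 CPM in SGC-CBP30 libraries, against 111 and 111 CPM in vehicle libraries. It fell by 0.91 ± 0.07 (SE) on the log2 scale (edgeR adjusted p = 5.8e-10). Others of the 5, named after their values were seen, were Dctd (deoxycytidylate deaminase, -0.91 ± 0.20), Shmt1 (a folate cycle enzyme, -0.69 ± 0.11) and the nucleoside transporter gene Slc29a1 (-0.59 ± 0.15).

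Of 20 accessory fork genes 4 fell and 2 rose, shares near those over all tested genes (16.3% and 13.6%). Pole3, a histone-fold subunit of polymerase epsilon, had 29.0 and 29.4 CPM in SGC-CBP30 libraries, against 42.2 and 39.9 CPM in vehicle libraries, and fell by 0.49 ± 0.10 (SE) on the log2 scale (edgeR adjusted p = 0.000416). Its partner gene Pole4, named after its values were seen, had 20.1 and 17.6 CPM in SGC-CBP30 libraries, against 13.8 and 15 CPM in vehicle libraries, and rose by 0.39 ± 0.13 (edgeR adjusted p = 0.0283). Pole4 missed it in DESeq2 (adjusted p = 0.118) and without SGC-CBP30 replicate 1 or vehicle replicate 1 (0.176 in both). Pold4, the smallest subunit of polymerase delta, rose by 0.54 ± 0.11, with 34.6 and 32.6 CPM in SGC-CBP30 libraries, against 25.1 and 20.9 CPM in vehicle libraries (edgeR adjusted p = 0.000654). Among the 7 other licensing genes 0 fell, and Orc3, a subunit of the origin recognition complex, rose by 0.28 ± 0.09 (edgeR adjusted p = 0.0235; 0.0894 in DESeq2, 0.0521 without SGC-CBP30 replicate 1, 0.0544 and 0.224 without vehicle replicates 1 and 2). Of 10 other helicase activation genes Tipin, of the fork protection complex, fell by 0.61 ± 0.17 (edgeR adjusted p = 0.00904; 0.0586 without SGC-CBP30 replicate 2 and 0.0648 without vehicle replicate 2). Of 7 other chromatin genes the remodeller gene Hells fell by 0.47 ± 0.10 (edgeR adjusted p = 0.000679).

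**Figure D5:**
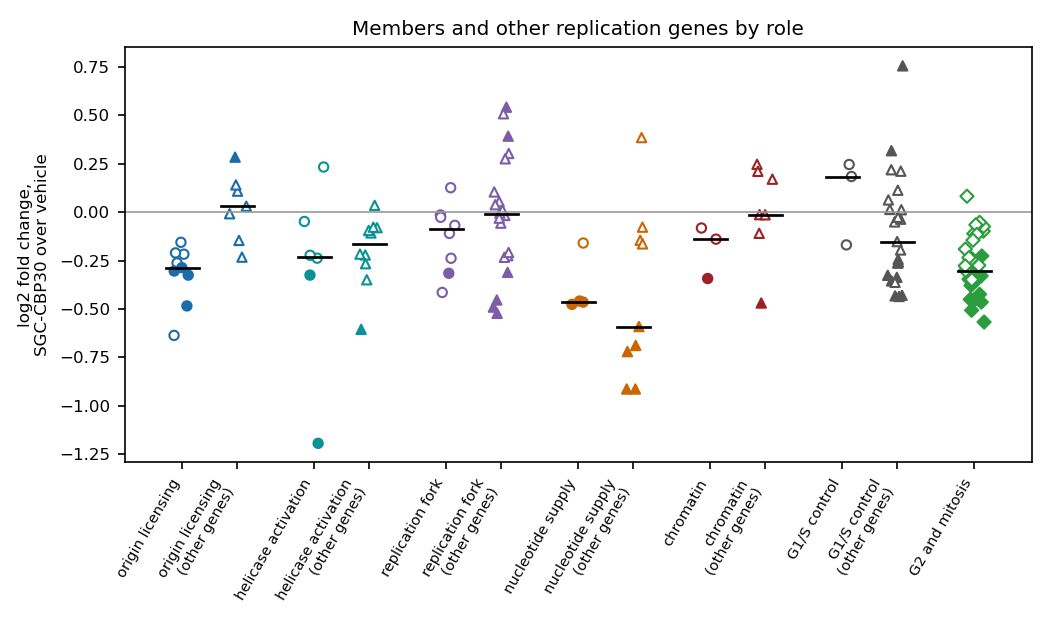
SGC-CBP30 over vehicle log2 fold change by role for the 33 members (circles), the 76 other replication and G1/S genes (triangles) and 30 G2 and mitosis genes (diamonds), filled where the adjusted p is under 0.05, with a bar at each median. The licensing members all lie below 0 while the 7 other licensing genes have a median of 0.03.

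Of the 3 genes of D-type cyclins, which act before cyclin E, Ccnd3 rose, Ccnd1 fell and Ccnd2, named after its values were seen, was not called. Ccnd2 had 339 and 376 CPM in SGC-CBP30 libraries, against 374 and 355 CPM in vehicle libraries, so that its groups overlapped (log2 fold change -0.03, edgeR adjusted p = 0.802). Ccnd3 had 55.2 and 55.7 CPM in SGC-CBP30 libraries, against 34.4 and 31.3 CPM in vehicle libraries, and rose by 0.76 ± 0.09 (SE) on the log2 scale (edgeR adjusted p = 4.7e-07). Ccnd1 had 84.3 and 77.1 CPM in SGC-CBP30 libraries, against 103 and 101 CPM in vehicle libraries, and fell by 0.34 ± 0.07 (edgeR adjusted p = 0.00109). The S phase cyclin gene Ccna2 fell by 0.43 ± 0.10 (edgeR adjusted p = 0.00244; 0.0645 without vehicle replicate 1). In all, 8 of the 23 other G1/S genes fell and 2 rose, the second being the CDK inhibitor gene Cdkn1b (0.32 ± 0.10, named after its values were seen; edgeR adjusted p = 0.0170, and 0.0713 in DESeq2, 0.0527 without SGC-CBP30 replicate 1, 0.291 without vehicle replicate 1). Over all tested genes 16.3% fell and 13.6% rose. Cdkn1a, the p53-induced CDK inhibitor gene, had 498 and 459 CPM in SGC-CBP30 libraries, against 430 and 455 CPM in vehicle libraries. Its log2 fold change of 0.11 ± 0.06 had an edgeR adjusted p of 0.171, but passed with library totals (0.0162) and without SGC-CBP30 replicate 2 (0.000802).

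Markers of later cycle phases and of cell types moved beside these genes. Genes of G2 and mitosis were lower in 13 of 30 cases and higher in 0, with a median of -0.30. Over all tested genes 16.3% were lower and 13.6% higher, which is the background to this count and to the marker counts that follow. Their summed level was 794 and 833 CPM in SGC-CBP30 libraries, against 979 and 964 CPM in vehicle libraries. Top2a, the topoisomerase of replicated chromosomes, fell by 0.23 ± 0.07 (SE) on the log2 scale (edgeR adjusted p = 0.0188), a call lost in DESeq2 (adjusted p = 0.0503), with library totals (0.111) and without any 1 library except SGC-CBP30 replicate 2 (0.0820 to 0.208). The proliferation marker gene Mki67 had 111 and 133 CPM in SGC-CBP30 libraries, against 129 and 124 CPM in vehicle libraries, so that its groups overlapped (log2 fold change -0.05 ± 0.08, edgeR adjusted p = 0.666; -0.19 and 0.0200 without SGC-CBP30 replicate 2). Of 9 crypt base stem cell markers 3 fell and 2 rose, among them Olfm4 (-1.79 ± 0.08) and the receptor gene Lgr5 (0.56 ± 0.10), and their summed level was 311 and 336 CPM in SGC-CBP30 libraries, against 446 and 419 CPM in vehicle libraries. Their median log2 fold change was 0.03, and 6 of the 9 lay above 0. Without Olfm4, left out after its values were seen, the other 8 summed to 256 and 279 CPM in SGC-CBP30 libraries, against 242 and 240 CPM in vehicle libraries. Of 12 enterocyte markers 7 fell and 2 rose, with summed levels of 32108 and 29861 CPM in SGC-CBP30 libraries, against 41351 and 41592 CPM in vehicle libraries. Of the 7 general epithelial markers 3 rose and 1 fell, and the 3 that rose were all keratin genes. The 7 summed to 8984 and 8355 CPM in SGC-CBP30 libraries, against 7122 and 7133 CPM in vehicle libraries. The part of cell type shares in the S phase result was not tested.

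The authors' deposited table holds an adjusted p under 0.05 for 5 members, all lower: Mcm7, Gins1, Pcna, Rrm1 and Rrm2. Over all genes with an adjusted p in the authors' deposited table, 6.91% were lower under the same threshold. In the authors' deposited table the log2 fold change of Gins1 is -1.20 with an adjusted p of 0.0323, and that of Mcm7 is -0.48 with an adjusted p of 0.000280.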

How the data were processed

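All values came from 1 deposited table of mouse organoid libraries. Per the file headers, the authors gave raw counts per gene and library, FPKM, their group means as a signal on the scale of normalized counts, a log2 fold change, a p-value and its adjusted form (tool unnamed), and the gene length. The submitters' processing notes list, without roles, featureCounts 1.5.0-p3, HISAT2 2.0.5 and StringTie 1.3.3b, with the build mm9. The deposited coordinates are those of GRCm38 instead: 98.5% of 51477 identifiers shared with GENCODE M21 had identical coordinates, as had all 33 members. The table stops within its last line, and any further genes were not analysed here. For strand use and multiply mapped reads, the setting is not given in the sources used here. The 27 symbols turned into dates were restored by identifier. The authors' group means were not used.

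The deposited counts were tested with edgeR 4.0.16 under R 4.3.3. Low genes were removed with filterByExpr on the groups, libraries were scaled by TMM, and SGC-CBP30 was set against vehicle in the robust quasi-likelihood F test, Benjamini-Hochberg adjusted over 14684 genes. Calls needed an adjusted p under 0.05. The standard error (SE) is the log2 fold change divided by the square root of F, and 95% intervals use the test's degrees of freedom. FPKM served to set levels of different genes side by side. At these depths 3 counts, the limit that a count of 0 allows, equal 0.170 to 0.188 CPM per library, which covers counting error alone. Within groups, libraries varied beyond counting noise (chi-square per degree of freedom 6.8 for SGC-CBP30 and 3.06 for vehicle). The test was checked on simulated data, with 50 changed genes at each fold. It recovered 28% of them at 1.25-fold, 58% at 1.5-fold, 72% at 2-fold and 90% at 3-fold, with 13 false calls. In this simulation small changes were often missed. It changed far fewer genes than the 4401 called in the data, so its rates need not hold there. Alternatives were DESeq2 1.42.0, library totals, RLE factors, no filter, at least 50 counts in 2 libraries, a replicate block, and each library left out in turn, with the gene filter kept.

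All 33 members are named. From the 76 other genes, the rule names up to 2 called genes of smallest p per role, or else the 1 with the smallest p, and Mki67, Cdkn1a, Ccna2, Top2a, Lgr5, Olfm4, Epcam, Crebbp and Ep300 are named as context. The members and lists were chosen with earlier results of these data known. Promoter sequences are from RefSeq (GRCm38.p6), and 6 members had no entry. Some results on genes that are not members are not reported here.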

Additional observations from a re-analysis of the deposited data

How the results depend on the processing

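Of 10 alternatives, none called a member higher, and no called member changed sign. Gins1, Mcm7, Rrm1 and Rrm2 were called in every alternative, and 19 members in none that tested them. The count of members lower was 7 in DESeq2, 7 with library totals and 5 to 11 when 1 library was left out. The count over all genes, 4401 in all, was 2921 to 4623 when 1 library was left out, the lowest without vehicle replicate 2 and 3026 without vehicle replicate 1. The other replication and G1/S genes called higher numbered 2 in DESeq2, 9 with library totals and 2 to 6 leaving out 1 library, and those called lower 10 to 17 leaving out 1 library. The members' median was -0.15 with library totals, -0.25 with at least 50 counts in 2 libraries, and -0.28 to -0.19 leaving out 1 library. With library totals, among the genes recomputed (those named), 6 that were not called turned sign: Gins3 (0.024), Pold1 (0.0051), Pole (0.058), Lig1 (0.047), Mki67 (0.021) and Ccnd2 (0.047). Leaving out 1 library also turned uncalled genes, whose ranges were -0.31 to 0.29 (Gins3), -0.27 to 0.072 (Pola1), -0.059 to 0.028 (Pole), -0.11 to 0.43 (Fen1), -0.18 to 0.11 (Lig1), -0.32 to 0.026 (Tyms), -0.16 to 0.0057 (Chaf1b), -0.013 to 0.47 (E2f1), -0.052 to 0.46 (Ccne1), -0.19 to 0.071 (Mki67), -0.10 to 0.046 (Ccnd2) and -0.037 to 0.11 (Epcam). The causes were not tested. The replicate numbers do not pair the samples in the labels, and the deviations of same-numbered libraries had a correlation of -0.00907 across genes. With the replicate number as a block 13 members were lower, Mcm6 (adjusted p = 0.0487) and Rfc3 (0.0427) among them, 0 higher, and 4703 genes changed. Depth limits the scarce members, Fen1, Gins3, Orc1 and Gins1, with 13 to 86 counts in a library, most.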

Other observations

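Ratios between genes within a library do not depend on how libraries are scaled. In deposited FPKM, the ratio of Gins1 to Gins4, subunits of the same complex, was 0.128 and 0.183 in SGC-CBP30 libraries, against 0.429 and 0.410 in vehicle libraries. Mcm7 stood at 1.31 and 1.43 times the mean of the other 5 hexamer genes in SGC-CBP30 libraries, against 1.58 and 1.68 times in vehicle libraries. Pcna over Pole was 41.1 and 37.7 in SGC-CBP30 libraries, against 49.1 and 47.8 in vehicle libraries. Rrm2 over Rrm1 was 3.54 and 3.32 in SGC-CBP30 libraries, against 3.47 and 3.31 in vehicle libraries, and these ranges overlap. Among genes that are not members, Ccnd3 over Ccnd1 was 0.351 and 0.388 in SGC-CBP30 libraries, against 0.179 and 0.166 in vehicle libraries, and Pole4 over Pole3 was 0.563 and 0.487 in SGC-CBP30 libraries, against 0.265 and 0.306 in vehicle libraries. These pairs were picked after the fold changes were seen, so they carry no test.

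E2F matches were in the promoter windows of 5 of 10 members that fell and 8 of 17 that were not called. CCAAT boxes were in 8 of 10 and 8 of 17, and CHR letters in 1 of 10 and 5 of 17, and these splits were not tested. Among members that fell, the windows of Cdt1, Mcm3, Mcm5, Mcm7 and Uhrf1 held an E2F match. Those of Mcm10, Pcna, Rrm1, Rrm2 and Tk1 held none. Among uncalled members, those of Orc1, Cdc6, Mcm6, Gins3, Pola1, Pold1, Rfc3 and Lig1 held a match.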
